A study of Mus musculus with 12 samples.

Results

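To examine the molecules that hold lymphocytes at rest, the transcripts of 10 genes linked to FOXO signaling and lymphocyte quiescence were followed in B cells of Peyer's patches (PP), the lymphoid follicles of the small intestine, from stroke mice and sham controls. The genes were Foxo1, Foxo3, Klf2, Pik3ip1, Sesn1, Ccng2, Btg1, Btg2, Tob1 and Pdcd4, which are 10 of the 36175 genes in the table. They were selected by name with earlier results from these same mice known, so their differences between stroke mice and sham controls are given as a description. The intervals and p-values printed for those differences come from the fit over all genes and are no independent evidence, and the variation between mice of the same group, which this choice did not use, was tested. All 10 passed the filter on low values, which kept the 12590 genes with 1 or more normalized TPM in each of the 12 mice.

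The study compared 6 sham controls with 6 stroke mice, all male C57BL/6JHsd wild-type animals aged 10 to 12 weeks according to the methods. Stroke mice, labelled brain injury, had the middle cerebral artery blocked for a time by a filament, and sham controls the corresponding operation without occlusion. Painkillers belonged to the surgical protocol. At 18 h, B cells were enriched with magnetic beads from the PP, first by removal of other cells and then with beads against the leukocyte antigen CD45, and their total RNA was sequenced in bulk, 1 sample per mouse. Values are in the deposited unit, normalized TPM, which is scaled for transcript length, and the depth behind them is unknown because no read counts were used.

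A resting lymphocyte is kept out of the cell cycle by an active program. When signals through the antigen receptor activate the kinases PI3K and AKT, AKT phosphorylates the transcription factors FOXO1 and FOXO3, which then leave the nucleus, and genes that favor rest and recirculation lose their activator. KLF2, the BTG and TOB proteins, cyclin G2, sestrin 1, PIK3IP1 and PDCD4 restrain growth at further points, from trafficking and mRNA decay to the mTOR kinase and the initiation of translation.

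The genes lie on 7 chromosomes of the GRCm38 assembly, and each is protein coding in the GENCODE M21 annotation. Foxo1 is at chr3:52268336-52353221, Foxo3 at chr10:42181841-42276755, Klf2 at chr8:72319033-72321656, Pik3ip1 at chr11:3330401-3342971 and Sesn1 at chr10:41809935-41908424. Ccng2 is at chr5:93267257-93276231, Btg1 at chr10:96617006-96622809, Btg2 at chr1:134075170-134079120, Tob1 at chr11:94211454-94215495 and Pdcd4 at chr19:53892231-53929860.

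Promoter sequences are shown for 5 of the genes whose levels moved together from mouse to mouse, as described further on. They are Klf2, Btg1 and Btg2 of one set and Sesn1 and Pdcd4 of another. Pik3ip1, which moved with Sesn1 and Pdcd4, is not shown. Each is the stretch of up to 250 bases before a RefSeq transcription start (GRCm38.p6), 5′ to 3′ on the strand of the gene. The Klf2 stretch ends 31 bases before the start, and the Sesn1 stretch is that of its second start. Capitals mark TGACG on either strand, the half-site of the cAMP response element that CREB binds, and GTAAACA on either strand, a FOXO binding motif.
Klf2, chr8:72318812-72319031, plus strand: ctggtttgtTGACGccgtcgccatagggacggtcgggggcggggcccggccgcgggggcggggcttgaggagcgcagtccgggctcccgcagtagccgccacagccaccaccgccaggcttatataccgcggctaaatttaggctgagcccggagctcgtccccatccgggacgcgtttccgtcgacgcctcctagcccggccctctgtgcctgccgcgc
Btg1, chr10:96616751-96617000, plus strand: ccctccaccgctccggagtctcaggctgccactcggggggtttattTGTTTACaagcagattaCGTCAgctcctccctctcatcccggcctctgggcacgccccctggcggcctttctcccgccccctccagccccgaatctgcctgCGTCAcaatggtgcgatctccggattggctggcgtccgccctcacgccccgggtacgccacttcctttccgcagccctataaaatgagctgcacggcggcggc
Btg2, chr1:134079156-134079405, minus strand: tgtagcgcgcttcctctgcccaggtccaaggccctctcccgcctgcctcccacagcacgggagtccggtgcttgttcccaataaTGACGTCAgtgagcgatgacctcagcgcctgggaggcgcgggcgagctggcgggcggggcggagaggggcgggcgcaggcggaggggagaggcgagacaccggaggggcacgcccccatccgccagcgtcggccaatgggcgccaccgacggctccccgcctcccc
Sesn1, chr10:41887189-41887438, plus strand: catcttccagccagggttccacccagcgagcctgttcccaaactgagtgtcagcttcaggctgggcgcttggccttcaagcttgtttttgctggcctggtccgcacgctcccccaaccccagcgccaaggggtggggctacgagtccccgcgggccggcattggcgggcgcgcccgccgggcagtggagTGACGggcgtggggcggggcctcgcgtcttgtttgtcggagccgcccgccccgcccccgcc
Pdcd4, chr19:53891981-53892230, plus strand: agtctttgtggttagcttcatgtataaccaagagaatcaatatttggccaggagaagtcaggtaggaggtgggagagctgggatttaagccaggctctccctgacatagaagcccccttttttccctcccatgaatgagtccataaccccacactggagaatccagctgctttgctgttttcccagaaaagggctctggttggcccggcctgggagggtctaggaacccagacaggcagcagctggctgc

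The Btg2 stretch held the full palindrome TGACGTCA, which contains the half-site on both strands and starts 166 bases before the transcription start. In Btg1 the half-site lay on the minus strand 187 and 103 bases before the start, and in Klf2 on the plus strand 241 bases before it. The Sesn1 stretch held 1 half-site 61 bases before the start, and the Pdcd4 stretch held none. The stretch before the first Sesn1 start, not shown, held neither the half-site nor GTAAACA, and the same was true of Pik3ip1. Over all 10 genes, 6 of 12 windows held the half-site, with Foxo3 and Tob1 as the other two genes, against 17.8% of the 32851 promoter windows of that length in RefSeq. The full palindrome was present in 1.55% of those windows. GTAAACA occurred in 1 of the 12 windows, that of Btg1, where its minus strand match starts 204 bases before the start, and in 3.17% of all windows. AGAACA, a half-site of the glucocorticoid receptor, occurred in 0 of the 12 and in 16.1% of all windows. These matches describe the letters of the windows, not the binding of a factor.

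Before the comparisons, the identity of the samples was checked. B cell markers were high in every mouse, with a summed level of 6 genes between 1572 and 2202 in sham controls and between 1252 and 1970 in stroke mice. Among markers of other cells, the neutrophil gene S100a8 did not exceed 0.524 and the 5 stromal genes summed to at most 9.06 in any mouse. The 4 endothelial genes summed to between 78.1 and 106, nearly all of it Pecam1, at 93.9 ± 9.57 in sham controls and 93.3 ± 7.46 in stroke mice, while Kdr did not exceed 0.519. Lyz2, a myeloid gene, was at 109 ± 81.9 in sham controls and 78.8 ± 37.7 in stroke mice, and 8 T cell genes summed to between 71.1 and 176 over both groups. Epithelial markers varied most, with a summed level of 8 genes between 32.2 and 1061 in sham controls and between 28.3 and 574 in stroke mice. None of 12 lists of markers, handling, glucocorticoid and mitochondrial genes passed the test of a difference between the groups (exact permutation test, adjusted p of at least 0.468), 0 were below 0.05 unadjusted in this test, and the smallest unadjusted p was 0.0693, for the follicular B cell list. A pair of mice stood apart. Stroke mouse 5 had the lowest B cell and follicular lists and the highest mitochondrial share of the summed values, 7.49%, and sham mouse 6 had the lowest column total, 559570, so results are also given without them.

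Btg1 was the most abundant of the 10 transcripts, with a mean of 221 normalized TPM over the 12 mice, and Tob1 the least, with 7.21. Ranked by the mean of their log2 values, Pdcd4, Klf2, Pik3ip1, Sesn1, Btg2, Ccng2, Foxo3 and Foxo1 lay between them. The steps from Pdcd4 to Klf2 and from Foxo1 to Tob1 held in all 12 mice. Several neighbors did not keep their order: Klf2 exceeded Pik3ip1 in 6 of 6 sham controls but in 1 of 6 stroke mice, and Sesn1 exceeded Btg2 in 0 of 6 sham controls and in 5 of 6 stroke mice. Foxo3 exceeded Foxo1 in 9 of 12 mice, so the 2 FOXO transcripts were close in level.

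**Figure D1:**
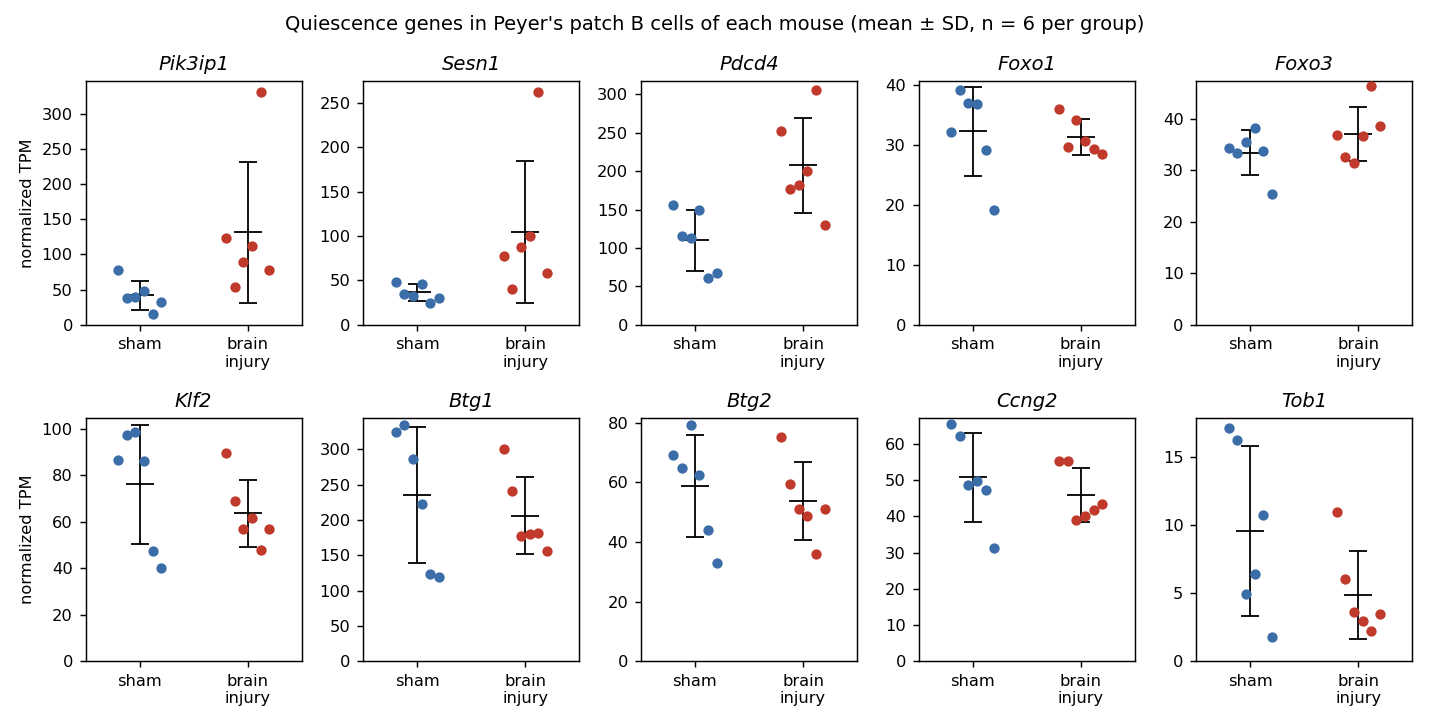
Normalized TPM of the 10 genes in each mouse (dots), with the group mean and SD (black bars) on linear axes that start at 0; the horizontal axis gives the group, 6 mice each. In Pik3ip1, Sesn1 and Pdcd4, 5 of 6 stroke mice lay above every sham control, and the dots of the other 7 genes were interspersed.

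Pik3ip1, Sesn1 and Pdcd4 were higher in stroke mice, and they were 3 of the 10 genes called higher at an unadjusted p under 0.05 by limma. Of all genes tested, 557 (4.42%) were called higher and 213 (1.69%) lower, and none of the 12590 passed after Benjamini-Hochberg adjustment (smallest adjusted p 0.468). Among the 10 genes the adjusted p ran from 0.716 to 0.995, and 0 of 10 were called lower. Of the genes called, 72.3% were higher, and this share was 83.5% after each mouse was rescaled to the same total and 53.6% after quantile normalization. It was 44.6% without sham mouse 6, with 936 genes called higher and 1162 lower, and 49.97% without that mouse and stroke mouse 5. Since the choice of genes rested on this comparison, nothing is read from the count of 3. In bulk RNA, fewer cells that express a gene and less of its RNA per cell cannot be told apart.

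PIK3IP1 is a transmembrane protein that binds the catalytic subunit of PI3K and restrains it, upstream of AKT and the FOXO factors. Pik3ip1 was at 15.4, 38.7 and 78.1 normalized TPM in sham controls (lowest, median, highest) and at 54.3, 101 and 331 in stroke mice. Every stroke mouse lay above the sham mean, 5 of 6 lay above the highest sham control, and only stroke mouse 2 overlapped. The group means were 41.9 ± 20.8 and 131 ± 101 (SD, n = 6 each). The log2 fold change was 1.53 (SE 0.42, 95% interval 0.63 to 2.43), a 2.89-fold higher level, the widest gap of the 10. Leaving out each mouse in turn gave 1.22 to 1.74.

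Sestrin 1, made from Sesn1, is a stress-induced protein that holds back mTORC1 when amino acids are scarce, and its gene is a target of p53 and of FOXO factors. Sesn1 was at 24.9, 33.9 and 48.6 normalized TPM in sham controls and at 40.0, 82.9 and 263 in stroke mice (lowest, median, highest). Again 5 of 6 stroke mice exceeded every sham control, and stroke mouse 2 was the exception. The means were 36.3 ± 9.19 and 104 ± 80.5 (SD, n = 6 each), and the log2 fold change was 1.28 (SE 0.36, 95% interval 0.51 to 2.05), or 2.42-fold. The related Sesn3, also a FOXO target, was the more abundant sestrin in sham controls, with 114 ± 18.3, and stood at 110 ± 11.3 in stroke mice (log2 fold change -0.04, SE 0.13). The ratio of Sesn1 to Sesn3 within a mouse, which no scaling of a library can change, was 0.216 to 0.405 in sham controls and 0.433 to 2.28 in stroke mice. It was the one ratio without overlap among 6 computed, in a gene chosen for its difference, so nothing is read from that; Pik3ip1 over Foxo1 (0.531 to 2.42 and 1.83 to 11.3) and Pdcd4 over Foxo1 (2.08 to 4.83 and 4.57 to 10.4) overlapped. Sesn1 exceeded Sesn3 in stroke mouse 5 and in no other mouse. Sesn2 stayed at or below 3.29 in every mouse and was not tested.

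PDCD4 binds the helicase eIF4A and thereby slows the initiation of translation. Pdcd4 was at 60.5, 114 and 156 normalized TPM in sham controls and at 130, 191 and 305 in stroke mice (lowest, median, highest), and here the overlapping stroke mouse was number 6. The means were 110 ± 39.7 and 208 ± 62.0 (SD, n = 6 each), and the log2 fold change was 0.95 (SE 0.26, 95% interval 0.38 to 1.52), or 1.93-fold. Of 10 partners of PDCD4 in translation, 0 were called higher and 1 lower, Eif4a2, which encodes one of the eIF4A helicases and had a log2 fold change of -0.50 (SE 0.18). Eif4a2 was at 973 and 987 in sham mice 1 and 2, which had the highest summed epithelial markers. It was at 509 to 625 in the other sham controls and 408 to 563 in stroke mice, and was called whichever mouse was left out. The part of epithelial RNA in this difference was not tested.

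Stroke mouse 5 held the highest value of all 3 genes. Without stroke mouse 5 and sham mouse 6, the log2 fold changes were 1.17 for Pik3ip1, 0.92 for Sesn1 and 0.70 for Pdcd4, and each was still called at an unadjusted p under 0.05. In the same mouse the follicular markers Cr2 and Fcer2a were at their lowest, 47.1 and 48.6 normalized TPM. Over the groups Cr2 was at 258 ± 31.9 in sham controls and 158 ± 56.9 in stroke mice, and Fcer2a at 277 ± 42.1 and 187 ± 70.4, both called lower at an unadjusted p under 0.05. Without stroke mouse 5 alone, the log2 fold change of Cr2 went from -0.83 to -0.51 and that of Fcer2a from -0.72 to -0.36, and Fcer2a was called in 6 of the 12 analyses that leave out 1 mouse. Mitochondrially encoded transcripts, highest in stroke mouse 5, summed to 26895 to 47298 in sham controls and 31941 to 60655 in stroke mice, and 5 of 13 were called higher, of which mt-Nd6 was called in 7 of the 12 analyses that leave out 1 mouse. The part of these shifts in the differences of the 3 genes between the groups was not tested. With the T cell list as a covariate, all 3 genes were still called. That list differed little between the groups (mean log2 difference 0.11, exact permutation p = 0.67), so this fit could hardly change their differences. No fit was made with the follicular or the mitochondrial list as a covariate.

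**Figure D2:**
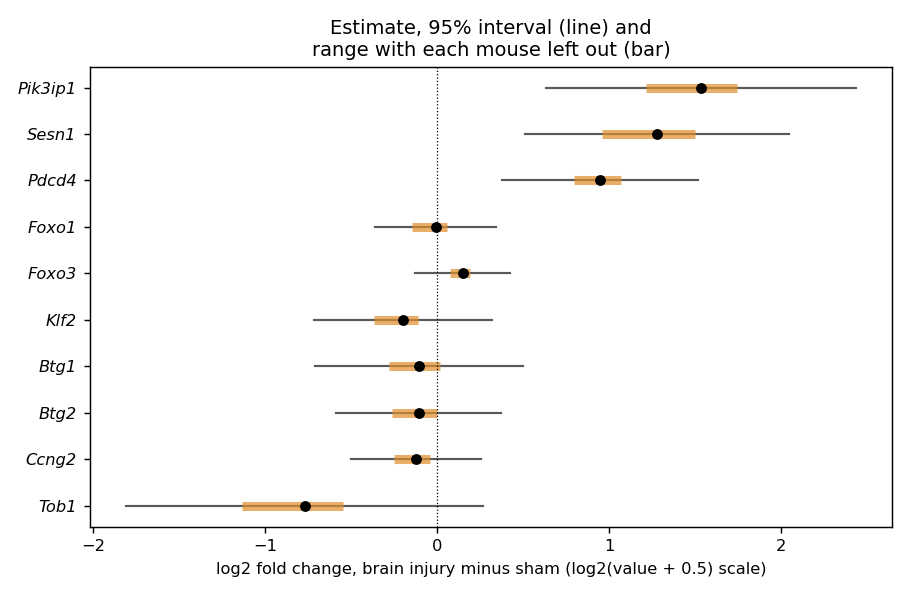
Log2 fold change of each gene in stroke mice relative to sham controls on the log2(value + 0.5) scale (dot), its 95% interval from limma (thin line) and the range over the 12 analyses that each leave out 1 mouse (thick bar). The intervals of Pik3ip1, Sesn1 and Pdcd4 lie above 0, and those of the other 7 genes span 0.

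The FOXO transcripts themselves overlapped between the groups. Foxo1, the main FOXO factor of B cells, was at 19.2, 34.5 and 39.2 normalized TPM in sham controls and at 28.4, 30.2 and 36.0 in stroke mice (lowest, median, highest), so that the stroke mice fell inside the sham range. Its log2 fold change was -0.01 (SE 0.16, 95% interval -0.36 to 0.34), and its sign changed in 9 of 25 alternative analyses. Foxo3 was at 33.4 ± 4.33 in sham controls and at 37.1 ± 5.30 in stroke mice (SD, n = 6 each; log2 fold change 0.15, SE 0.13, 95% interval -0.13 to 0.42). Stroke mouse 5 had the highest Foxo3, 46.3, and sham mouse 6 the lowest, 25.4, and without these the difference was 0.01. Foxo4 was lower in level, at 15.0 ± 2.95 and 17.2 ± 1.93, and Foxo6 did not exceed 0.541 in any mouse. The transcript level of a FOXO gene says nothing of the phosphorylation or place of its protein.

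KLF2 is a transcription factor that FOXO1 activates and that maintains rest and the receptors for leaving tissue. Klf2 was at 40.3, 86.3 and 98.7 normalized TPM in sham controls and at 48.1, 59.2 and 89.6 in stroke mice (lowest, median, highest). The sham controls fell apart into 4 mice between 86.0 and 98.7 and mice 5 and 6 at 47.4 and 40.3, and the stroke mice spread from just above that pair into the upper range. The log2 fold change was -0.20 (SE 0.24, 95% interval -0.72 to 0.32). S1pr1, the receptor that guides lymphocytes out of lymphoid tissue and a target of both KLF2 and FOXO1, was at 73.1 ± 19.5 in sham controls and 44.7 ± 14.4 in stroke mice and was called lower (log2 fold change -0.71, SE 0.23). Klf4, a further quiescence factor of the family, was at 7.13 ± 5.74 and 5.49 ± 5.83.

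BTG1, BTG2 and TOB1 belong to one antiproliferative family that recruits the CCR4-NOT deadenylase to mRNAs. Btg1 was at 235 ± 96.1 normalized TPM in sham controls and 206 ± 54.1 in stroke mice (log2 fold change -0.11, SE 0.28), and Btg2 at 58.8 ± 17.1 and 53.7 ± 13.0 (log2 fold change -0.11, SE 0.22; SD, n = 6 for each mean). Sham mice 5 and 6 were again the lowest of their group for both, at 124 and 119 for Btg1 and 44.2 and 32.9 for Btg2. The signs of Btg1 and Btg2 changed in 4 and 3 of 25 alternative analyses. None of the 12 CCR4-NOT genes tested was called at an unadjusted p under 0.05 by limma, and 0 passed after adjustment.

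Tob1 had the lowest level and the widest relative spread among sham controls. It was at 1.80, 8.57 and 17.1 normalized TPM in sham controls and at 2.22, 3.55 and 10.9 in stroke mice (lowest, median, highest), a log2 fold change of -0.77 (SE 0.48, 95% interval -1.81 to 0.27) that was not called. The 3 mice with the highest Tob1, sham 1, sham 2 and stroke 1, at 17.1, 16.3 and 10.9, were also the 3 mice with the highest summed level of epithelial markers, at 1061, 1007 and 574. The part of epithelial RNA in the level of Tob1 was not tested. It was called lower without sham mouse 6 (log2 fold change -1.13) and without stroke mouse 1 (-1.02). Its related gene Tob2 was at 26.2 ± 6.88 and 21.0 ± 5.23 (log2 fold change -0.30, SE 0.22).

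Ccng2 encodes cyclin G2, an atypical cyclin that FOXO factors induce and that slows the cell cycle. It was at 31.3, 49.3 and 65.5 normalized TPM in sham controls and at 39.0, 42.7 and 55.2 in stroke mice (lowest, median, highest), and the stroke mice fell within the sham range. The log2 fold change was -0.12 (SE 0.17, 95% interval -0.50 to 0.25), and that of its relative Ccng1, a p53 target, was -0.29 (SE 0.28).

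Around these 10 genes, 132 of 139 listed genes of the same pathways were tested, of which 9 were called higher and 3 lower. Over all genes tested the shares were 4.42% and 1.69%, and nothing is read from the counts of these or of the single lists. Without sham mouse 6, 6 pathway genes were called higher and 16 lower, beside 936 and 1162 of 12661 genes tested. Without that mouse and stroke mouse 5, they were 6 and 12, beside 818 and 819 of 12792. None passed after adjustment (limma, smallest adjusted p 0.468). Their median log2 fold change was 0.02, beside 0.01 over all genes tested and -0.06 over the 10 genes. Of 17 inputs of PI3K and AKT, 0 were called at an unadjusted p under 0.05 by limma, and their median log2 fold change was 0.03.

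Among 15 brakes on PI3K and mTOR other than Pik3ip1 and Sesn1, 4 were called higher and 0 lower. They were Inpp5d, which encodes the lipid phosphatase SHIP1 (log2 fold change 0.38, SE 0.17), its relative Inppl1 (0.49, SE 0.21), the mTORC1 inhibitor gene Ddit4 (0.81, SE 0.36) and Nprl3, a subunit of the GATOR1 complex (0.33, SE 0.14). Inpp5d was at 812 in stroke mouse 5 and at most 434 in the other stroke mice, and its log2 fold change was 0.21 without that mouse. That of Ddit4 was 0.52 without sham mouse 6. Of the 12 analyses that leave out 1 mouse, Inpp5d and Inppl1 were each called in 4, Nprl3 in 5 and Ddit4 in 6, and none of the 4 was called without both stroke mouse 5 and sham mouse 6. Ddit4 is also induced by glucocorticoids, and Fkbp5, another gene of that list, was at 42.3 ± 21.2 in sham controls and 127 ± 79.6 in stroke mice (log2 fold change 1.51, SE 0.37). The glucocorticoid-induced list as a whole had a summed level of 86.0 to 384 in sham controls and of 205 to 580 in stroke mice.

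Of 27 further FOXO targets tested, 2 were called higher and 1, S1pr1, lower. The higher ones encode the cell death proteins PUMA and BIM: Bbc3 was at 3.20 ± 1.25 in sham controls and 6.69 ± 1.63 in stroke mice, and Bcl2l11 at 23.4 ± 5.96 and 44.1 ± 29.8 (SD, n = 6 each). Their log2 fold changes were 0.99 (SE 0.21) and 0.75 (SE 0.29). Bcl2l11 was at 104 in stroke mouse 5 and between 27.4 and 39.4 in the other stroke mice, and its log2 fold change was 0.47 without that mouse. Bcl2l11 was not called without sham mouse 5 (0.66), and Bbc3 was called whichever mouse was left out. Txnip, the most abundant target and an inhibitor of glucose uptake, was at 132 ± 33.4 and 208 ± 123 and was not called. Of 16 regulators and relatives of FOXO tested, 0 were called at an unadjusted p under 0.05.

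Among 14 relatives in quiescence, 2 were called higher. Zfp36l2, an mRNA decay factor that promotes quiescence of B cell precursors, was at 52.6 ± 22.4 in sham controls and 119 ± 31.5 in stroke mice (log2 fold change 1.24, SE 0.29), and Klf10 at 64.4 ± 6.74 and 91.6 ± 28.6 (0.46, SE 0.17). Of 21 drivers of the cell cycle, Ccnd3, which encodes the cyclin D3 of dividing B cells, was called higher and E2f3 lower. The log2 fold change of E2f3 was -0.42 (SE 0.19) and -0.27 without stroke mouse 5, and it was called in 3 of the 12 analyses that leave out 1 mouse. Ccnd3 ran from 132 to 222 normalized TPM in sham controls and from 234 to 360 in stroke mice, with no overlap, as in 44 (0.349%) of the genes tested, and it had the smallest p of them all (adjusted p = 0.468, limma).

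The differences between mice of the same group were not used to choose the genes, and they were examined with the group means removed and each value taken relative to the median of its mouse. Over the 45 pairs of genes, 9 pairs moved together at an adjusted p under 0.05 for Pearson's r, and 7 for Spearman's rho (100000 permutations of the mice within their group, n = 12). Of the 9 pairs, 6 lay among Foxo1, Klf2, Btg1, Btg2, Ccng2 and Tob1, and 3 among Pik3ip1, Sesn1 and Pdcd4. These sets were drawn from the called pairs, so they have no called pair between them by construction.

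Not every pair inside a set was close: Foxo1 had an r of 0.39 with Tob1, below the 0.67 of Btg1 with Pdcd4 across the sets. In the first set, Klf2 moved with Btg2 (r = 0.93, rho = 0.91, permutation p = 8.0e-05, adjusted p = 0.0029) and with Btg1 (r = 0.92, rho = 0.88, permutation p = 0.0015, adjusted p = 0.017). The r of Klf2 and Btg2 was 0.95 in sham controls and 0.93 in stroke mice, and it was again 0.93 without sham mice 3 and 5, which lay farthest from the median of Klf2. Foxo1 moved with its target Klf2 (r = 0.78, rho = 0.80, permutation p = 0.0077, adjusted p = 0.039), more tightly in sham controls (r = 0.87) than in stroke mice (r = 0.37), a difference that was not tested, and r was 0.63 without sham mice 6 and 3. The remaining pairs were Btg1 with Btg2, Ccng2 with Btg1 and Ccng2 with Tob1, with r of 0.81, 0.79 and 0.83 and adjusted p of 0.031, 0.026 and 0.025 (permutation test). Of these, Btg1 with Btg2 dropped to r = 0.57 without sham mice 5 and 6. Sham mice 5 and 6 were the lowest of their group for Klf2, Btg1 and Btg2, whereas stroke mouse 1 was the highest of its group for all of these.

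In the second set, Pik3ip1 moved with Sesn1 (r = 0.91, rho = 0.88, permutation p = 0.00013, adjusted p = 0.0029) and with Pdcd4 (r = 0.85, rho = 0.91, permutation p = 0.0010, adjusted p = 0.015), and Sesn1 moved with Pdcd4 (r = 0.72, rho = 0.73, permutation p = 0.0055, adjusted p = 0.031). Without stroke mouse 5, which held the top value of each, these r were 0.82, 0.81 and 0.62. Foxo3 had an r of 0.70 with Sesn1, but 0.24 without stroke mouse 5, and this pair was not called (adjusted p = 0.16, permutation test). Between the sets, Klf2 had an r of 0.18 with Pik3ip1 and of -0.09 with Sesn1 (adjusted p = 0.76 and 0.86, permutation test); the highest was that of Btg1 with Pdcd4 (adjusted p = 0.11). The genes of a pair were read in the same library, so shared features of a library enter every r.

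**Figure D3:**
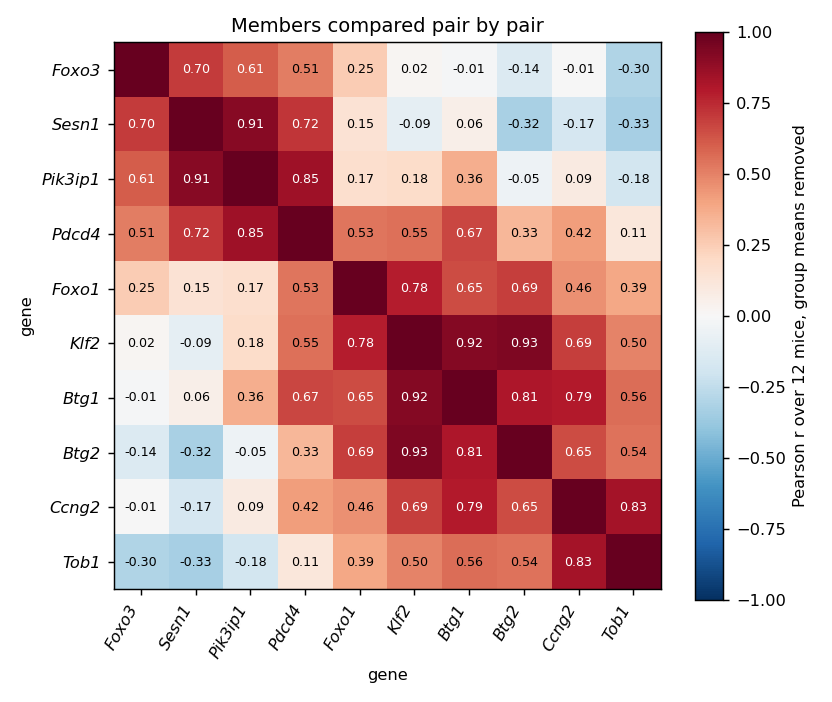
Pearson r of each pair of the 10 genes over the 12 mice after removal of group means, on values relative to the median of each mouse; color and number give r, from -1 to 1, and rows and columns are genes. Klf2 with Btg2 (0.93) and Pik3ip1 with Sesn1 (0.91) lie in different red squares, and the fields between these squares hold values from -0.33 to 0.67.

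The genes were then set against 5 lists of B cell states and of handling and hormone response, 50 relations in all, by the same test. As for the pairs, the share called over all genes tested was not computed. Immediate early genes such as Fos, Jun and Egr1 respond within minutes to receptor signals and to cell handling. The list of 12 genes also held the heat shock genes Hspa1a and Hspa1b. Of the 12, 8 reached 1 normalized TPM in every mouse, and Hspa1a did so in 2 mice. Each gene had the same weight in the mean of the list. The level of this list went with Btg2 (r = 0.88, rho = 0.90, permutation p = 0.00061, adjusted p = 0.024) and with Klf2 (r = 0.86, rho = 0.86, permutation p = 0.00095, adjusted p = 0.024), and these were the 2 relations called. The r of Btg2 was 0.92 in sham controls, 0.83 in stroke mice and 0.86 without sham mice 3 and 2, and that of Klf2 was 0.91, 0.77 and 0.80. Btg1 was not called (r = 0.82, adjusted p = 0.066, permutation test), but was in 3 of 17 alternative analyses, among them those without centring (adjusted p = 0.031) and with quantile normalization (adjusted p = 0.029). The list itself had a mean level that did not pass the test between the groups, with a summed level of 144 to 353 in sham controls and 114 to 281 in stroke mice.

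Both calls depended on single mice. Over 17 analyses with other settings or with mice left out, r stayed between 0.84 and 0.91 for Btg2 and between 0.81 and 0.91 for Klf2, but the adjusted p rose to at most 0.13, and Btg2 was called in 9 and Klf2 in 8 of the 17. Neither was called without sham mouse 1, 3, 5 or 6, nor without stroke mouse 1, 3 or 5.

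Against the glucocorticoid-induced list, the genes came in another order. Pdcd4 had the highest r, 0.78 (rho = 0.83, permutation p = 0.0061, adjusted p = 0.076), followed by Btg1 (0.69, adjusted p = 0.19), Pik3ip1 (0.68, adjusted p = 0.18), Ccng2 (0.65, adjusted p = 0.21) and Sesn1 (0.56, adjusted p = 0.21, permutation test), and none was called in the main analysis. Pdcd4 was called in 2 of 17 alternative analyses, one of them without centring (adjusted p = 0.035, permutation test). In stroke mice alone, r was 0.95 for Pdcd4, 0.86 for Pik3ip1 and 0.79 for Sesn1, but with the follicular B cell list it was of similar size and negative, -0.66, -0.86 and -0.88. Stroke mouse 5 was the highest of its group for the list and for all 3 genes. Without stroke mouse 5 and sham mouse 6, the mice farthest from the list's median, r over the remaining mice was 0.71, 0.74 and 0.46. With the follicular list, r over all mice was -0.33 for Pdcd4, -0.57 for Pik3ip1 and -0.71 for Sesn1 (adjusted p = 0.45, 0.30 and 0.27, permutation test), and 0.15, 0.03 and -0.04 without stroke mouse 5 and sham mouse 3.

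**Figure D4:**
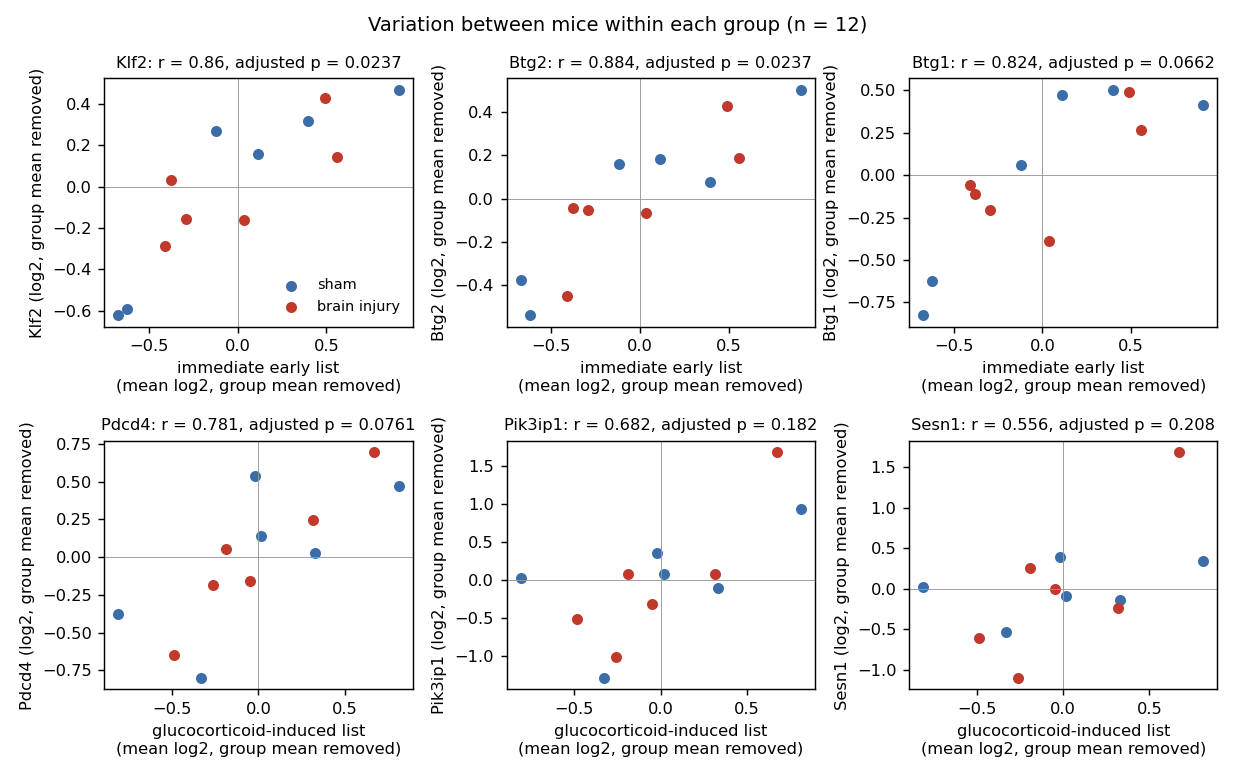
Level of 6 genes against the mean log2 level of the immediate early list (top) or of the glucocorticoid-induced list (bottom) in each of 12 mice; both axes are log2 values relative to the median of the mouse, with group means removed. Btg2 (r = 0.88) and Klf2 (r = 0.86) rise along the immediate early list in both groups, and Pdcd4 (r = 0.78) along the glucocorticoid-induced list, where its adjusted p is 0.076.

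Over all genes tested, those whose pattern between mice was most like that of Foxo1 were Ccdc117 (r = 0.94), Uhmk1 (r = 0.92) and 9530068E07Rik (r = 0.92). Most like Klf2 were Snx9, Fam43a and Smap2, with r of 0.97, 0.97 and 0.96. Likeness here is Pearson's r over 12 mice with group means removed, given as a description of the top of a ranking.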

How the data were processed

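Total RNA of B cells purified from Peyer's patches was sequenced in 6 sham controls and 6 stroke mice. Per the sample labels and the methods, the authors trimmed reads with Trimmomatic 0.39, quantified transcripts with kallisto 0.48.0 (GRCm38) and analyzed them with sleuth 0.30.0 in R 4.1.2. In the deposited table each gene has an expression signal, named normalized TPM. Their column sums run from 559570 to 1404340 instead of being equal, so rescaled totals were among the alternatives. No counts were used, and depth is unknown.

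The 10 genes, the pathway and marker lists and the rules for naming genes were chosen with earlier results of these data known. Named were the 10 genes, fixed paralogues, the called genes of each list (at most 5), its most abundant gene, and the 3 genes most like Foxo1 and Klf2; 1 gene that this rule names is not reported here. Genes that reached 1 in each mouse were fitted on log2(value + 0.5) by limma 3.58.1 (R 4.3.3) with group as the only term, and p-values were adjusted by the Benjamini-Hochberg method. A gene was called at an unadjusted p under 0.05. Fold changes are on this log2 scale and understate changes of low genes. Lists were compared by exact two-sided permutation over all assignments of the mice, and relations by 100000 two-sided permutations within groups (Python 3.11.15, numpy 2.4.6). The 45 pairs of genes were added after the data had been seen. The labels do not tie replicates to shared litters or days, and p-values measure the spread between these mice. The limma fit and the test of relations with lists were tried on simulated data, and the other tests were not. Alternatives were other pseudocounts, filters, scalings, weights, a block, and leaving out mice. Promoters came from RefSeq, in which all 10 genes matched.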

Additional observations from a re-analysis of the deposited data

Results flagged for a closer look

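In 4 of 44 groups of 6 mice that were examined for an outlying mouse, 1 mouse lay farther from the others than Dixon's 95% limit allows. Chance alone marks about 5% of such groups. Foxo3 of sham mouse 6 was one of them, at 25.4 normalized TPM, below all other sham controls. Stroke mouse 5 had the lowest mean log2 level of its group for the B cell list, 3.50, and for the follicular B cell list, 2.17, relative to the median of the mouse. Stroke mouse 6 had the highest mean log2 level of the stromal list, -3.32 on the same scale.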

How the results depend on the processing

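Pik3ip1, Sesn1 and Pdcd4 were called higher in the main analysis and in all 25 alternatives, so that 3 of the 10 genes were called higher throughout, with log2 fold changes of 1.17 to 1.74, 0.92 to 1.5 and 0.70 to 1.07. Signs changed for Foxo1 in 9, Btg1 in 4, Btg2 in 3 and Ccng2 in 1 of 25. The count of the 10 genes called lower went from 0 to 1, Tob1, under the replicate block and without both outlying mice, and was 0 to 1 when each mouse was left out. The lone changes without 1 mouse came from sham mouse 6 and stroke mouse 1.

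Of all genes, 557 were called higher and 213 lower, against 1418 and 350 without a filter, 348 and 69 at equal totals, 347 and 67 without immunoglobulin genes, and 866 and 703 with sample weights. Lower calls were 327 after quantile normalization, 404 under the replicate block and 819 without both outlying mice. Leaving out each mouse gave 395 to 936 higher and 146 to 1162 lower, the upper ends without sham mouse 6. Equal totals moved the median log2 fold change of all genes from 0.01 to 0.13. The share of higher among called genes was 56.3% with median-of-ratios scaling, 83.8% without immunoglobulin genes, 65.6% under the block, 55.2% with weights, 44.6% without sham mouse 6 and 49.97% without both outlying mice. Pathway genes called lower went from 3 to 5 with median-of-ratios scaling, quantile normalization or the T cell list as covariate, to 11 with weights and 12 without both outlying mice, and were 2 to 16 with each mouse left out. Relations called went from 2 to 4 without centring, 3 after quantile normalization and 0 without both outlying mice, and were 0 to 3 with each mouse left out. Leaving out sham 6 and stroke 5 together and the T cell covariate were chosen after seeing the data. The cause of these changes was not tested.

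Same-numbered mice of the groups deviated together with r of 0.013 to 0.49, and 2 of 6 sham mice correlated best with the stroke mouse of their own number, so the numbers were not taken to pair the mice. Under the replicate block 770 genes were called higher, with 3 of the 10 genes among them. In exact sign-flip tests of same-numbered mice the mitochondrial list had an unadjusted p of 0.031, the smallest that 6 pairs can give, higher in the stroke mouse of 6 of 6 numbers, and no list passed after adjustment. A single time point, 6 mice per group and an unknown depth limit what small differences could be seen.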
